A study of Mus musculus with 12 samples.

Results

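The transcriptome described here is that of vehicle-treated C2C12 myotubes, the baseline of a series in which muscle cells received ginsenoside Rc (gRc) and hydrogen peroxide. Its members are the 3 libraries of 12 whose titles carry the name Vehicle, and no other selection was made. C2C12 is a line of mouse myoblasts, and for these libraries the cells had spent 5 days in medium with 2% horse serum before 24 h with the solvent alone (0.02% DMSO). The labels give myoblasts as the cell type, while the protocol describes myotubes. Poly(A) RNA was made into directional libraries that were read as paired ends of 100 bp, and the labels do not say whether the replicates were separate cultures. The 3 gRc libraries (10 µM for 24 h, after the same differentiation) serve only as values set beside those of the vehicle libraries with the same number.

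Myoblasts leave the cell cycle when serum is withdrawn, align, fuse into multinucleated myotubes and build sarcomeres. MyoD and Myf5 commit cells to the lineage, myogenin drives terminal differentiation, and the membrane proteins myomaker and myomixer carry out fusion. Many contractile proteins come as embryonic, slow, fast and cardiac isoforms from separate genes, and a fraction of the cells in such cultures stays mononucleated as reserve cells.

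Levels are in TPM, the deposited per-length measure of a gene's share of the transcripts in its library, and values in a row are those of replicates 1, 2 and 3. Expected counts summed to 19274762, 27819147 and 26567856 in these libraries. The genes that mark differentiated skeletal muscle were all high. Acta1, skeletal muscle alpha-actin, stood at 3022, 3128 and 5847 TPM, Myh3, the embryonic myosin heavy chain, at 1295, 1425 and 669.7 TPM, and Myog, which encodes myogenin, at 1625, 1166 and 862 TPM. The muscle creatine kinase gene Ckm stood at 715, 661 and 602 TPM and the myomaker gene Mymk at 305, 815 and 957 TPM. So every marker was above 300 TPM in every library, but no library was highest for all of them: Acta1 and Mymk were highest in replicate 3, Myog and Ckm in replicate 1 and Myh3 in replicate 2. Ckm had the narrowest spread (659 ± 56.3 TPM, mean ± SD, n = 3), and Mymk differed 3.14-fold between its highest and lowest library.

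The promoters of 4 of these 5 markers are printed to show where they carry an E-box (CANNTG), the motif that MyoD and myogenin bind. The windows are 300-base promoter sequences of RefSeq on GRCm38.p6, 5′ to 3′ on the gene's strand, with E-boxes in capitals. They are chr1:134289754-134290053 (plus strand) for Myog, chr8:123894726-123895025 (minus strand) for Acta1, chr7:19410844-19411143 (plus strand) for Ckm and chr11:67078050-67078349 (plus strand) for Myh3.
Myog: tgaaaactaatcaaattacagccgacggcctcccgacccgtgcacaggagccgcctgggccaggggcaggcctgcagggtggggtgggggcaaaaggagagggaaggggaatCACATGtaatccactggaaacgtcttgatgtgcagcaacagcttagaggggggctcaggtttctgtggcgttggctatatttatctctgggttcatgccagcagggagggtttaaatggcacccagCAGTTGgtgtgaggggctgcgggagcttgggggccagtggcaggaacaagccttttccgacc
Acta1: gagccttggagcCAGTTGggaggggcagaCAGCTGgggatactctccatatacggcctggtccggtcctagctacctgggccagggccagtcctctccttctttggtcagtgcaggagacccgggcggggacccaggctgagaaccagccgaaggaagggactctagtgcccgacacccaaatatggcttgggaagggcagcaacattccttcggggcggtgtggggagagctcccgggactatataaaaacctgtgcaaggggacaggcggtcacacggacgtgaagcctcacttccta
Ckm: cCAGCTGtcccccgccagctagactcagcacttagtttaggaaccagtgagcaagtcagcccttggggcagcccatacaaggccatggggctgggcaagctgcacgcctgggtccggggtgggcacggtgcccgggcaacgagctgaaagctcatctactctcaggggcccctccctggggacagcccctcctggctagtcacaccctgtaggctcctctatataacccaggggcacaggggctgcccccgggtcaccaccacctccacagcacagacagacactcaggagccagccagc
Myh3: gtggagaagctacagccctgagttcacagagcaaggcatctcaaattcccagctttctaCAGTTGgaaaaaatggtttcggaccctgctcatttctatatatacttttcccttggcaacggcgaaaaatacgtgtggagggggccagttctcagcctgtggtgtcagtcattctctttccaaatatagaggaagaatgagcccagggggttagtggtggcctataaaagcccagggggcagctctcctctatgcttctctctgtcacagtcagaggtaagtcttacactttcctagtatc
The E-boxes of Myog began 138 and 12 bases before the start site, those of Acta1 238 and 221 bases before it, that of Ckm 249 and that of Myh3 191 bases before it. CANNTG, which reads the same on both strands, was common, with 23756 of all 32851 mouse windows (72.3%) holding at least 1 copy, and 43 of the 52 windows of sarcomere genes (82.7%). The form CAGCTG, which is included in CANNTG and was present in Acta1 and Ckm, stood in 16.3% of all windows and in 36.5% of sarcomere windows. TATAAA, searched on both strands, stood in 13.6% of all windows and in 25% of sarcomere windows. On the gene's strand alone it was present in the windows of Acta1 and Myh3. Windows of mitosis genes held CAGCTG in 11.1% and windows of ribosomal protein genes in 5.19%. These matches describe letters in a window and say nothing of binding in these cells.

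The 3 libraries were broad in content. By their mean, 12955 of 48795 genes reached 1 TPM (12550, 12824 and 12846 in the single libraries), 1672 reached 100 TPM and 145 reached 1000 TPM. The 100 most abundant genes of each library held 29.3, 30.5 and 39.6% of its transcripts (33.1% ± 5.64), so replicate 3 was the most concentrated. With the mitochondrial genome and its copies on chromosome 1 left out, the share was 30.2% ± 0.836, so the libraries then differed little in it. Among the 30 genes with the highest mean, 9 were on the list of sarcomere genes, with Mylpf, the fast regulatory light chain, in front at 5993, 13586 and 8892 TPM. The imprinted noncoding RNA gene H19 stood at 7473, 10492 and 7459.6 TPM, the elongation factor gene Eef1a1 at 8598, 9049 and 6504 TPM and the slow and cardiac troponin C gene Tnnc1 at 9222, 9662 and 4884 TPM. The highest of the 3 libraries was 1.41 times the lowest for H19, 1.39 times for Eef1a1, 1.98 times for Tnnc1 and 2.27 times for Mylpf. Other genes near the top were less even. Tmsb10, whose product binds actin monomers, stood at 1483, 4614 and 14621 TPM, and Cd63, a tetraspanin of late endosomes, was highest in replicate 1 and lowest in replicate 3, at 9843, 4108 and 1906 TPM. Lgals1 (galectin-1), Gapdh and Tpt1 followed Tmsb10 in being highest in replicate 3, and Sparc, a matrix protein, and Des, which encodes the intermediate filament protein desmin, followed Cd63 in being lowest there. Several names at the top cannot be taken as they stand. Gm28661, Gm28437 and Gm10925 are near-copies of mitochondrial genes, described with them. The gene mt-Atp8 had an effective length (the number of positions a fragment can start from) of only 35.2, 24.2 and 9.36 bases, so that few reads made a high TPM. The pseudogene Rps2-ps10 and the predicted gene Gm10076 may share reads with near-identical genes and are uncertain for that reason.

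**Figure D1:**
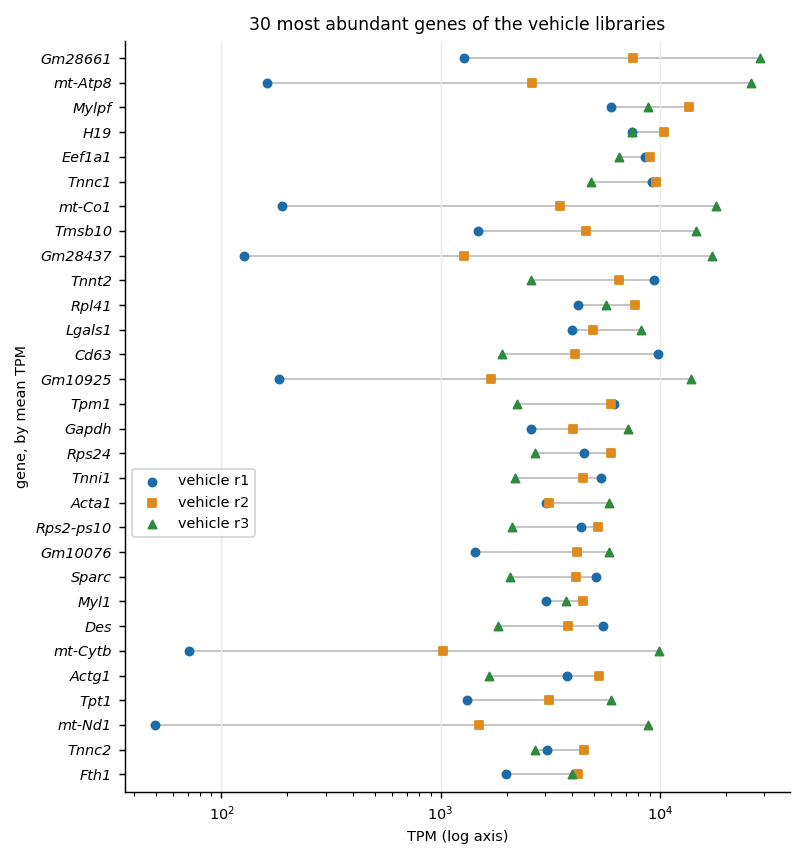
Levels of the 30 genes with the highest mean in the vehicle libraries, in TPM on a log axis, with 1 point per library (r1 to r3 are replicates 1 to 3) and a line from the lowest to the highest. H19 and Eef1a1 stay within 1.41-fold, while transcripts of the mitochondrial genome and their copies Gm28661, Gm28437 and Gm10925 span over 20-fold and are highest in replicate 3.

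Sarcomeric myosin heavy chains were dominated by an embryonic and a fast adult isoform. Myh3 held 43.2, 57.9 and 52.9% of the summed TPM of the 9 genes (51.3% ± 7.48) and Myh1, the fast IIx isoform, 48.4, 29.8 and 33.3% (37.2% ± 9.91). In TPM, Myh3 was above Myh1 in replicates 2 and 3 and below it in replicate 1. The effective length of Myh1 was 2946, 5615 and 5663 bases, and in counts its share of the family was 32.5, 29.2 and 33.0%, against 57.3, 59.0 and 53.7% for Myh3, so that Myh3 led in every library on that scale. All other members were far lower. The fast IIb isoform Myh4 stood at 80.3, 87.7 and 58.4 TPM, the neonatal isoform Myh8 at 47.6, 70.2 and 44.6 TPM, and the slow isoform Myh7 at 47.8, 60.1 and 27.9 TPM. Myh7b, at 43.0, 34.3 and 16.8 TPM, and the fast IIa isoform Myh2, at 27.3, 43.1 and 23.0 TPM, followed. In this order of means, from Myh4 to Myh2, each gene overlapped in range with the next. The cardiac alpha isoform Myh6 stood at 4.61, 6.56 and 3.59 TPM, and the extraocular isoform Myh13 stayed under 1 TPM in every library. Of the other myosin II chains, the non-muscle gene Myh9 was abundant at 868, 800.5 and 315 TPM, Myh10 stood at 25.8, 33.8 and 23.9 TPM, Myh14 at 15.1, 6.13 and 2.23 TPM, and the smooth muscle gene Myh11 was at 0.09 TPM or less.

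The thin filament and the light chains held a mixture of skeletal and cardiac forms. Mylpf held 56.2% ± 3.33 of the sarcomeric light chain TPM, Myl1 (fast essential chain) 23.3% ± 4.22 and Myl4 (embryonic and atrial essential chain) 19.8% ± 3.32. Myl2, the slow and ventricular regulatory chain, was uneven at 12.7, 152 and 222 TPM, Myl3 reached no more than 3.51 TPM, and the atrial gene Myl7 had no count in any library. Among actins, Acta1 held 30.6% ± 12.4 of the family's TPM, the cytoplasmic genes Actg1 and Actb 27.0% ± 12.6 and 17.3% ± 5.66, Acta2 (smooth muscle alpha-actin) 14.7% ± 6.48 and the cardiac gene Actc1 9.60% ± 1.04. In TPM, Actg1 was above Acta1 in replicates 1 and 2 (32.2 and 36.1% against 25.8 and 21.4%) and below it in replicate 3. In counts Acta1 led in every library, with 26.6, 25.0 and 39.1% against 19.4, 18.4 and 14.7% for Actg1. The effective length of Actg1 was 469, 498 and 1583 bases. On that scale Acta2 held 21.5% in the mean, above Actg1 and Actb with 17.5% each. Actc1 was the most even of the actins at 1257, 1265 and 1232 TPM. Acta1 and Acta2 were each lowest in replicate 1 and highest in replicate 3, and Acta2 stood at 966, 2133 and 2775 TPM. Actg2, enteric smooth muscle actin, was lowest at 80.2, 111 and 106 TPM.

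In each troponin family the slow or cardiac gene led in the mean. Tnnc1 held 75.1, 68.2 and 64.3% of troponin C and the fast gene Tnnc2 the rest, and Tnni1, the slow troponin I gene, held 73.5, 63.4 and 64.7% beside the fast gene Tnni2 with 26.3, 36.4 and 35.2%. Tnnc1 was above Tnnc2 and Tnni1 above Tnni2 in every library. Tnnt2, the cardiac troponin T gene that is also active in embryonic skeletal muscle, stood at 9392, 6541 and 2579 TPM, the slow gene Tnnt1 at 3126, 3015 and 1047 TPM and the fast gene Tnnt3 at 929, 2883 and 2144 TPM. The share of Tnnt3 was 6.91, 23.2 and 37.2% and, in counts, 10.6, 21.9 and 36.7%, lowest in replicate 1 and highest in replicate 3 on both scales. Tnni3, the troponin I of heart, stayed at 16.6, 13.8 and 3.71 TPM. Tropomyosin TPM was mostly Tpm1 (51.5, 48.7 and 39.0%) and Tpm2 (22.7, 36.9 and 47.3%), and Tpm2 passed Tpm1 in replicate 3 only, while in counts it did so in replicate 2 as well. Tpm3 stood at 2269.5, 1269 and 407 TPM and Tpm4, a mostly non-muscle form, at 802, 504 and 379 TPM, both highest in replicate 1 and lowest in replicate 3. For Tpm4 the order did not hold in counts, which came to 509.8, 632 and 539.9 CPM, with effective lengths of 930.01, 1879 and 1891 bases.

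**Figure D2:**
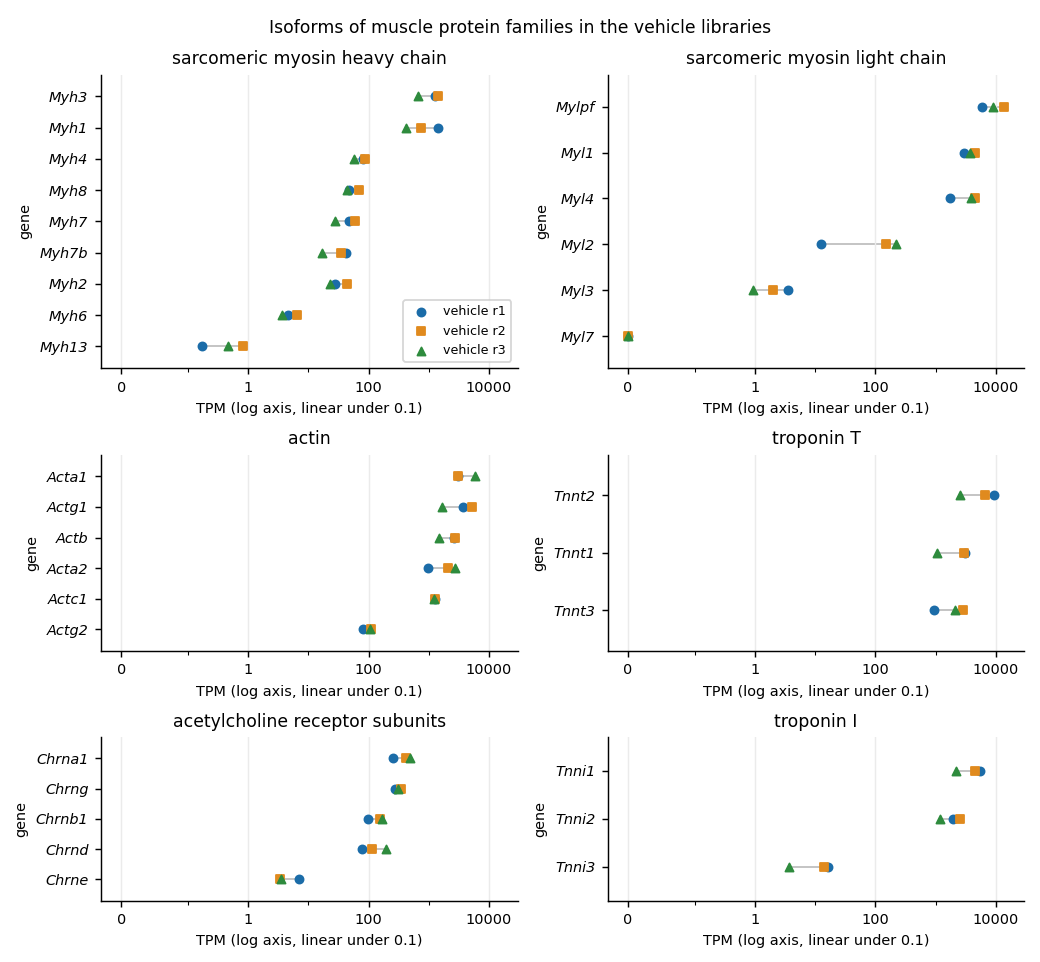
Levels of the genes of 6 families in the vehicle libraries, in TPM on a log axis that is linear under 0.1, with 1 point per library (r1 to r3 are replicates 1 to 3) and a line over the range. Myh3 and Myh1 stand apart from the other myosin heavy chains, Tnnt1, Tnnt2 and Tnnt3 are all near or above 1000 TPM, and Chrng is far above Chrne.

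All 56 genes of a sarcomere list reached 1 TPM in the mean and 34 reached 100 TPM. Together they held 73025, 83192 and 53532 TPM (69917 ± 15072 TPM), lowest in replicate 3. Of the 51 with a mean of at least 5 TPM, 24 (47.1%) were at least 2-fold apart between their highest and lowest library, where the share over all 10177 such genes was 43.6%, so sarcomere genes were close to the background. By role, the M-band gene Myom2 stood at 401, 375 and 202 TPM and Myom1 at 74.6, 82.5 and 48.4 TPM. In the Z-disc, Actn3, the fast alpha-actinin, stood at 529, 476 and 374 TPM against 132, 104 and 69.1 TPM for Actn2, and Tcap (telethonin) at 663, 310.2 and 139 TPM. Csrp3 (muscle LIM protein) shared with Tcap a highest value in replicate 1 (513 TPM) and a lowest in replicate 3 (163 TPM). Of the genes of giant proteins, Ttn (titin) stood at 25.6, 39.1 and 37.1 TPM and Neb (nebulin) at 153, 312 and 187 TPM. Mybph, the myosin binding protein H gene, held 97.7, 94.4 and 97.1% of its family, while Mybpc1 and Mybpc2 (slow and fast myosin binding protein C) stayed between 16.0 and 43.9 TPM and the cardiac gene Mybpc3 did not pass 0.44 TPM. The lowest sarcomere genes in the mean were Tmod4, Myl3, Myoz1 and Xirp2, of which Tmod4, a skeletal tropomodulin, stood at 1.67, 0.730 and 1.36 TPM.

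Parts of the calcium release machinery were present in skeletal form. Ryr1, the skeletal ryanodine receptor, stood at 119.6, 92.3 and 58.1 TPM and held 95.0% ± 0.0703 of its family's TPM, Ryr3 stood at 6.21, 4.89 and 2.99 TPM, and the cardiac gene Ryr2 had no count. Cacna1s, the voltage sensor of the skeletal calcium channel, stood at 80.4, 115 and 64.5 TPM, and its partner Stac3 at 38.88, 69.2 and 89.5 TPM. The calcium pumps were split between the fast gene Atp2a1 at 392, 501 and 577 TPM and the slow and cardiac gene Atp2a2 at 583, 465 and 328 TPM. In TPM, Atp2a2 was above Atp2a1 in replicate 1 and below it in replicates 2 and 3. In counts it was above in every library, with 66.9, 67.7 and 60.9% of the family against 33.0, 32.1 and 39.0%, and the effective length of Atp2a1 was 3044, 1799 and 1439.9 bases. For calsequestrin, which stores calcium in the reticulum, the cardiac gene Casq2 was above the skeletal gene Casq1 in every library (709, 1056 and 448 against 232, 227 and 137 TPM). The triad genes Bin1 and Jsrp1 were the highest of the 24 genes of this list in the mean, with Bin1 at 1958, 1105 and 611 TPM. Of the list, 22 genes reached 1 TPM. The exceptions were the pump inhibitors Sln, with a single count in each of replicates 2 and 3, and Pln, with none. Of the 20 at 5 TPM or more, 9 of 20 were 2-fold apart between libraries (45.0%), near the 43.6% of all genes.

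The acetylcholine receptor genes included the fetal subunit at a high level and the adult one at a low level. The fetal gamma subunit gene Chrng stood at 276, 344 and 311 TPM and the adult epsilon subunit gene Chrne at 6.99, 3.40 and 3.45 TPM, which made 32.9% ± 6.01 and 0.536% ± 0.386 of the TPM of the 5 subunits. The alpha, beta and delta genes Chrna1, Chrnb1 and Chrnd stood at 251, 416 and 484 TPM, 99.9, 155 and 168 TPM and 78.3, 114 and 196 TPM. Those 3 were lowest in replicate 1 and highest in replicate 3, while Chrng varied least, by 1.25-fold.

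Among myogenic factors, Myog stood far above the others. Myod1 was next at 169.8, 188 and 139 TPM. Myf5 was uneven at 2.51, 6.94 and 15.3 TPM, and Myf6 (MRF4), the factor of late fibres, stayed at 5.31, 5.43 and 3.45 TPM. Pax7, the mark of satellite cells, stood at 3.75, 6.50 and 7.01 TPM, and Pax3 had no count in any library. The MEF2 factors, which act with the MyoD family, were led by Mef2d at 184, 150.3 and 146 TPM, with Mef2c at 57.7, 133 and 129.8 TPM and Mef2a at 26.4, 79.6 and 96.3 TPM. Mef2d was highest in replicate 1 and Mef2a and Mef2c were lowest there, and Mef2b did not pass 0.36 TPM. Of the genes of adhesion and fusion, 16 of 20 reached 1 TPM. Mymk and the myomixer gene Mymx, at 199.8, 177 and 196 TPM, were both present, but Mymx differed by only 1.13-fold between libraries. Itgb1 (beta-1 integrin) stood at 418, 638 and 454 TPM, M-cadherin (Cdh15) at 307, 316 and 212 TPM, and the adhesion gene Ncam1 was uneven at 105, 483 and 239 TPM. Adgrb1, Adgrb3 and Nphs1 had no count.

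The metabolic isoforms combined adult muscle forms with general ones. Ckm held 52.8, 68.7 and 75.0% of creatine kinase TPM and the brain isoform Ckb 46.9, 31.1 and 24.7%, with Ckb at 634, 299.5 and 199 TPM. The mitochondrial kinases were almost missing, with Ckmt2, the sarcomeric one, at 3.88, 2.00 and 1.99 TPM and Ckmt1 at 2 counts or fewer. Eno3, muscle beta-enolase, was even in TPM at 1043, 1129 and 1189 TPM, and Eno1, the general form, stood at 1761, 1243 and 895 TPM. In counts, Eno3 came to 650, 921 and 966 CPM and Eno1 to 1088, 936 and 964 CPM. On that scale Eno1 was the more even, with a range of 1.16-fold against 1.49-fold for Eno3. Eno1b, at 521, 518 and 203 TPM, is close in sequence to Eno1, so reads of this pair may have been split between them. Muscle phosphofructokinase (Pfkm) held 73.7% ± 2.33 of its family and muscle phosphoglycerate mutase (Pgam2) 47.8% ± 5.07. Pygm, muscle glycogen phosphorylase, stood at 1252, 288 and 114 TPM with effective lengths of 697, 1497 and 2468 bases and at 596, 288 and 213 CPM, the counts scaled to the library total (CPM). So its 10.9-fold range in TPM was 2.80-fold in CPM. Of the glucose transporters, Slc2a1 (GLUT1) stood at 25.1, 29.8 and 27.6 TPM, while Slc2a4 (GLUT4), the insulin-responsive form of muscle, was at 0.610, 0.800 and 1.03 TPM. Ldha was the most even of the abundant enzymes at 663, 630.3 and 646 TPM. The 20 genes of glycolysis held 12366, 14386 and 15729 TPM.

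Genes known for late or adult fibres fell on both sides. Of 29, 25 reached 1 TPM in the mean and 9 reached 100 TPM. Myoglobin (Mb) stood at 526, 1394 and 941 TPM and the muscle cytochrome oxidase subunit Cox6a2 at 119, 106 and 314 TPM. Parvalbumin (Pvalb) was low at 8.29, 8.60 and 5.55 TPM, as were Ampd1 and Clcn1, the latter at 2.29, 0.680 and 0.360 TPM. Slc2a4, Ucp3, Esrrg and Ppargc1a, the coactivator PGC-1alpha, stayed under 1 TPM in the mean, with Ppargc1a at 0.110, 0.380 and 0.560 TPM. The adult form eEF1A2 (Eef1a2) stood at 0.560, 2.05 and 1.86 TPM, against 8598, 9049 and 6504 TPM for Eef1a1.

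Cycling genes were low but all present. All 30 genes of a mitosis list and all 30 of an S phase list reached 1 TPM in the mean, and none of the mitosis genes reached 100 TPM. The mitosis genes held 665, 734 and 652 TPM (684 ± 43.9 TPM) and the S phase genes 739, 798 and 559 TPM (699 ± 125 TPM). In RNA from whole cultures, fewer cells of a type and less RNA per cell cannot be told apart, so these sums do not give a share of cycling cells. The mitotic genes with the highest means were Top2a, at 85.00, 54.6 and 30.98 TPM, Birc5 (survivin), at 39.8, 75.3 and 41.0 TPM, and Pttg1 (securin), at 40.4, 56.8 and 54.9 TPM. The kinase gene Cdk1 stood at 24.2, 38.5 and 54.0 TPM, its cyclin Ccnb1 at 32.7, 25.9 and 18.5 TPM and Mki67 (Ki-67) at 4.89, 12.6 and 13.9 TPM. These genes did not move together between libraries: Top2a and Ccnb1 were highest in replicate 1, Birc5 in replicate 2 and Cdk1 and Mki67 in replicate 3. For Top2a the order changed with the measure, since its effective length was 1612, 3409 and 3815 bases and its counts came to 93.6, 124 and 89.1 CPM. In S phase, the ribonucleotide reductase genes Rrm2 and Rrm1 led at 158, 162 and 89.0 TPM and 115, 126 and 71.2 TPM, and Pcna, the replication clamp, stood at 25.1, 44.8 and 80.2 TPM. Of 29 mitosis genes at 5 TPM or more, 12 of 29 were 2-fold apart (41.4%), and of 24 S phase genes 7 of 24 (29.2%), beside 43.6% of all genes.

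Of 16 genes of G1 cyclins and cell cycle inhibitors, 2 reached 100 TPM in the mean and the others lay in the range of the cycling genes or below it. Cdkn1a, which encodes the inhibitor p21, was by far the highest at 4831, 2136 and 1492 TPM. Its range was 3.24-fold in TPM but 1.25-fold in CPM (2349.8, 1940.2 and 1876 CPM), and its effective length was 712, 1362 and 1668 bases. Ccnd3, the D cyclin of differentiated muscle, stood at 957, 389 and 468 TPM, while Ccnd1 stood at 15.8, 21.0 and 12.4 TPM and Ccnd2 at 6.26, 11.98 and 3.85 TPM. The retinoblastoma genes Rb1 and Rbl2 stood at 20.2, 33.7 and 32.8 TPM and 15.3, 34.0 and 26.6 TPM, and Cdkn1b (p27) and Cdkn1c (p57) at 14.1, 27.9 and 28.2 TPM and 29.6, 17.6 and 8.66 TPM. Cdkn2a and Cdkn2b, inhibitor genes that lie next to each other in the genome, had no count in any library, which limits each to under 0.156, 0.108 and 0.113 CPM if 3 counts are taken as the limit of a count of 0.

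Genes of satellite and reserve cells were present at low levels. Of 29, 25 reached 1 TPM and 2 reached 100 TPM in the mean. The highest was Itga7, an integrin that muscle fibres also carry, at 884, 652 and 431 TPM. Sdc4 (syndecan-4) stood at 323, 109 and 51.3 TPM, Id1, an inhibitor of MyoD family factors, at 95.2, 62.7 and 34.5 TPM, and Hes1, a Notch target, at 76.2, 102 and 63.4 TPM. Cd34 and Cxcr4 were lower, at 6.65, 12.2 and 14.9 TPM and 5.29, 15.2 and 37.0 TPM. Vcam1 was even at 22.3, 26.1 and 27.1 TPM. Pax3 and the calcitonin receptor gene Calcr, a mark of quiescent satellite cells, had no count.

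Matrix genes were abundant, and their collagens were uneven between libraries. Of 47 found, 45 reached 1 TPM and 31 reached 100 TPM, with sums of 27896, 19586 and 15575 TPM (21019 ± 6284 TPM). Of 43 at 5 TPM or more, 21 of 43 were 2-fold apart (48.8%), close to the 43.6% of all genes. The fibrillar collagens were all highest in replicate 1. Col3a1 stood at 4309, 1799 and 815 TPM, Col1a2 at 3226, 837 and 389.6 TPM and Col1a1 at 2319.98, 558 and 239 TPM. Col5a1, at 639, 305 and 165 TPM, and the basement membrane gene Col4a1, at 606, 306 and 147 TPM, had the same order. Some other matrix genes were lowest in replicate 1. Mgp (matrix Gla protein) stood at 383, 1285 and 1721 TPM, Bgn (biglycan) at 1177, 1804 and 1995 TPM and the cross-linking enzyme gene Lox at 140.4, 270.3 and 287 TPM. Fn1 (fibronectin) stood at 1131, 1905 and 1851 TPM. So the sum of the list was carried by different genes in different libraries. Ccn1 and Ccn2, matrix-linked targets of mechanical signals, were more even, at 279, 293 and 199 TPM and 314, 305 and 236 TPM. Among imprinted genes, H19 stood above all others, and Igf2, its neighbour in the genome, stood at 50.8, 104 and 91.4 TPM. Meg3, Rtl1, Mirg and Dlk1 of another imprinted cluster had no count in any library.

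Protein synthesis genes had the largest summed TPM of any list, though not the largest CPM, where their mean of 32666 stood under that of the sarcomere and matrix lists (54527 and 53221). The 90 cytosolic ribosomal protein genes held 85330.2, 104534 and 113932 TPM, 86 of them at 5 TPM or more, of which 60 of 86 were 2-fold apart between libraries (69.8%), a larger share than the 43.6% of all genes. They did not move as a block, since 47 were highest in replicate 3, 20 in replicate 2 and 19 in replicate 1. Rpl23a stood at 649, 2844 and 3905 TPM, for example, and Rpl35a at 4609, 2683 and 1147 TPM. Many of these genes have processed copies elsewhere in the genome, so reads may have been split. The 83 nuclear genes of the respiratory chain held 34719, 28224 and 27613 TPM, and 53 of 80 were 2-fold apart (66.2%), beside the same 43.6%. Replication-dependent histone genes, whose transcripts mostly lack a poly(A) tail, were low in these poly(A) libraries: 27 of 68 reached 1 TPM, 10 had no count, and the highest in the mean was the linker histone gene Hist1h1c at 120.4, 70.2 and 65.5 TPM.

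**Figure D3:**
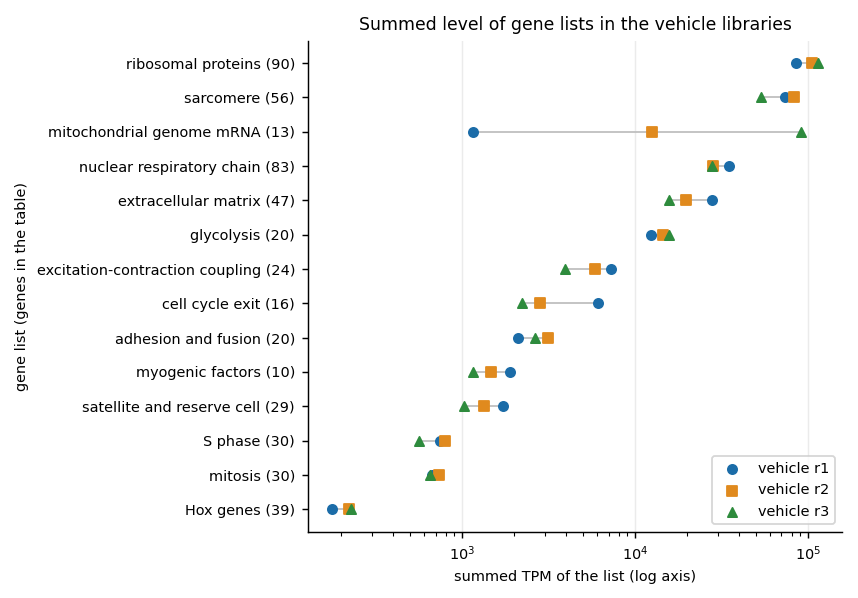
Summed level of 14 gene lists in each vehicle library, in TPM on a log axis, with the number of genes in the table after each name and a line over the range (r1 to r3 are replicates 1 to 3). Ribosomal protein and sarcomere genes stand near the top and mitosis and S phase genes near the bottom, while mRNA of the mitochondrial genome runs from 1147 to 91240 TPM.

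Transcripts of the mitochondrial genome had the widest range of all lists. The 13 mRNAs held 1147, 12503 and 91239.9 TPM, a range of 79.5-fold, and each of the 13 was lowest in replicate 1 and highest in replicate 3. The cytochrome oxidase gene mt-Co1 stood at 189, 3511 and 18111 TPM and the cytochrome b gene mt-Cytb at 70.7, 1025 and 9939 TPM. In the gRc libraries with the same numbers the 13 mRNAs held 8471, 9428 and 103062 TPM. Within the vehicle libraries the copies on chromosome 1 followed, with a summed level of 1588, 10855 and 61801 TPM. Gm28661 (chr1:24614885-24615565, minus strand, annotated as an unprocessed pseudogene) is identical to mt-Co2 at 681 of the gene's 684 bases, Gm10925 to mt-Atp6 at 678 of 681 and Gm28437 to mt-Co3 at 783 of 784. Reads of such pairs cannot be told apart. Gm28661 stood at 1279.8, 7578 and 28747 TPM and mt-Co2 itself at 53.6, 74.1 and 133 TPM, so most of the counts for this sequence were given to the nuclear copy. The summed level of the nuclear genes of the respiratory chain did not show the order of the mitochondrial mRNAs, since it was highest in replicate 1. Gene by gene they were mixed. Of 80 at 5 TPM or more, 36 were highest in replicate 3, 27 in replicate 1 and 17 in replicate 2. The lowest value was in replicate 1 for 44, in replicate 3 for 31 and in replicate 2 for 5.

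Genes of other cell types were mostly missing. Of 7 hepatocyte genes none passed 0.06 TPM in a library, and albumin (Alb) and transthyretin (Ttr) had no count. Of 9 endothelial genes none reached 1 TPM in the mean, and Cdh5 stayed at 0.07 TPM or less. The leukocyte gene Ptprc, the macrophage gene Adgre1, the pluripotency gene Pou5f1, the epithelial gene Epcam and the synaptic gene Snap25 had no count in any library. Other genes of such lists were not all missing. In the mean, 1 of 10 white blood cell genes and 0 of 5 pluripotency genes reached 1 TPM. So did 2 of 7 epithelial genes and 4 of 9 neuron genes. Of 9 adipocyte genes only Pparg reached 1 TPM, at 2.73, 3.04 and 3.74 TPM, while Adipoq and Plin1 had no count. Hba-a1 and Hba-a2, nearly identical alpha-globin genes, were at most 4.54 TPM. Heart genes were a mixture. Nppb, Gata4 and Nkx2-5 stood between 1.28 and 5.68 TPM, and Tbx5 and Myl7 had no count.

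Genes often used for connective tissue and smooth muscle were present in part. Smooth muscle Acta2, Tagln at 316, 478 and 428 TPM and Smtn at 125, 128 and 83.6 TPM were high, but the defining genes were not: Myh11 and the coactivator Myocd were at 0.09 TPM or less and Cnn1 at 1.35, 1.31 and 1.71 TPM. Of the fibroblast genes, Dcn (decorin) stood at 81.1, 214 and 177 TPM, Pdgfrb at 68.5, 78.2 and 79.5 TPM and Ly6a (Sca-1) at 55.5, 189 and 344 TPM. Pdgfra was at 8.14, 4.38 and 3.31 TPM, Lum did not pass 0.71 TPM, and Thy1, Tcf21 and Dpp4 had no count. Scx (scleraxis), a factor of tendon, stood at 690.05, 416 and 206 TPM, and the late tendon gene Tnmd stayed at 0.18 TPM or less. Sox9, known from cartilage, stood at 28.2, 23.2 and 12.2 TPM, Runx2, known from bone, at 3.48, 6.90 and 12.2 TPM, and Acan and Ibsp had no count. Tubb3, a tubulin used to mark neurons, stood at 25.9, 63.5 and 50.7 TPM, and the keratin gene Krt14 at 10.6, 6.31 and 4.18 TPM. The summed level of the fibroblast list was 6849, 2847 and 1664 TPM, but this list holds Col1a1 and Col3a1, which made up most of the sum, while Dcn and Ly6a were lowest in replicate 1. The smooth muscle list summed to 1490.5, 2855 and 3397 TPM, also lowest in replicate 1. The part of such cells in the differences between libraries was not tested.

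**Figure D4:**
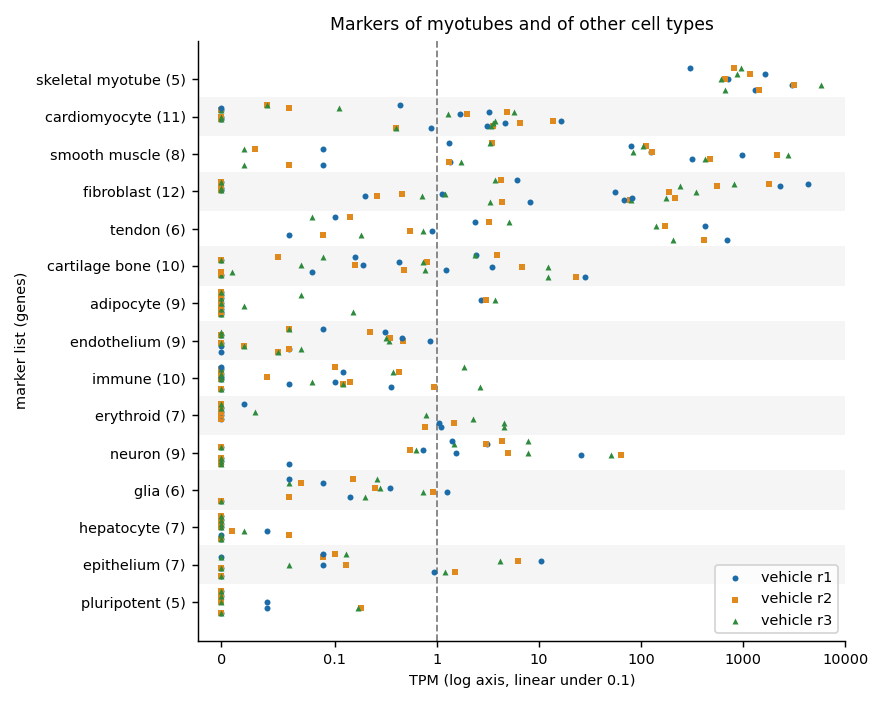
Levels of marker genes in the vehicle libraries, in TPM on a log axis that is linear under 0.1, with 1 point per gene and library (r1 to r3 are replicates 1 to 3), the number of genes after each name and a dashed line at 1 TPM. The 5 myotube markers lie above 300 TPM, while markers of liver, endothelium, glia and pluripotent cells lie near 0 and those of smooth muscle, fibroblasts and tendon are spread over the whole range.

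In all, 26909 of 48795 genes (55.1%) had no count in any vehicle library. Among protein-coding genes these were 5937 of 21772 (27.3%), while 11580 (53.2%) reached 1 TPM in the mean. A count of 0 allows up to 3 counts in each library, which is the limit in CPM given above for Cdkn2a.

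The libraries differed from each other for many genes. Of the 10177 genes with a mean of at least 5 TPM, 4439 (43.6%) were at least 2-fold apart between the highest and the lowest library, and 1095 stayed within 1.25-fold. Counted in CPM, which takes no length into account, 3539 (34.8%) were 2-fold apart, and 3040 were so on both scales. The outer libraries were replicates 1 and 3, with 3895 genes (38.3%) 2-fold apart in TPM, against 2132 (20.9%) for replicates 1 and 2 and 1575 (15.5%) for replicates 2 and 3. The count over the libraries that are left is therefore 1575 without replicate 1, 3895 without replicate 2 and 2132 without replicate 3. Replicate 2 lay between the other two for 3438 of the 4439 genes (77.4%). Set beside the gRc libraries of the same number, vehicle replicate 3 was 2-fold apart from gRc replicate 3 for 49 genes (0.481%), replicate 2 from gRc replicate 2 for 140 (1.38%) and replicate 1 from gRc replicate 1 for 1717 (16.9%). Vehicle replicate 1 and gRc replicate 2 were 2-fold apart for 1383. So each vehicle library was 2-fold apart from some gRc library for fewer genes than from any library of its own group. The labels do not say what a replicate number marks.

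**Figure D5:**
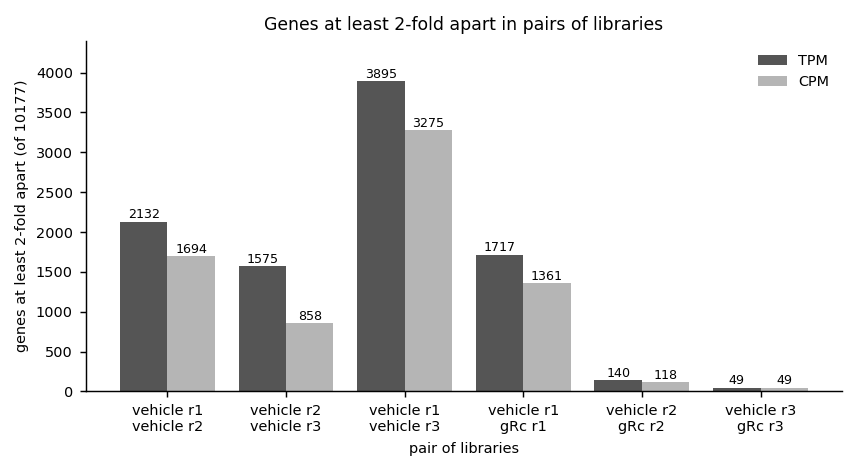
Number of genes at least 2-fold apart in 6 pairs of libraries, of the genes with a mean of at least 5 TPM in the vehicle libraries, counted in TPM (dark) and in CPM (light), with r1 to r3 for replicates 1 to 3. Vehicle replicates 1 and 3 differ for 3895 genes in TPM, while vehicle replicate 3 and gRc replicate 3 differ for 49.

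Values of the libraries themselves went with these differences. The mean fragment length, read from the gap between gene length and effective length, was 176, 196 and 236 bases in replicates 1, 2 and 3, and 202, 205 and 247 bases in the gRc libraries. By GC content, the 1016 genes richest in GC had median log2 ratios to the mean of the 3 libraries of 0.31, 0.03 and -0.37 in TPM, and the 1017 poorest of -0.23, 0.23 and 0.0013. Effective lengths themselves were 2-fold apart between libraries for 1071 of the genes. Of these, 815 (76.1%) were also 2-fold apart in TPM and 343 (32.0%) in CPM, beside 43.6 and 34.8% of all genes. TPM is a count per effective length, so part of the share in TPM is built in. Of the 6258 genes whose effective length differed by less than 1.25-fold, 2290 (36.6%) were 2-fold apart in TPM and 2231 (35.7%) in CPM. Of the 1071, 860 had their shortest value in replicate 1 and 821 their longest in replicate 3. Tln1 (talin), which links integrins to actin, was an example of both. It stood at 3447, 1093 and 126 TPM with effective lengths of 709, 1267 and 7751 bases, while its counts came to 1669, 923 and 734 CPM. Mdn1 stood at 195, 62.9 and 5.88 TPM but at 99.5, 94.8 and 72.5 CPM. The part of fragment length, GC content and effective length in the other differences was not tested.

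The genes with the widest ranges differed in kind from library to library. For replicate 1 they were Snord22, Exosc6, Appbp2os, Myo1h, BC037039, Mdn1, Stard3nl and Tln1. Exosc6, a subunit gene of the RNA exosome, had 1328 counts in replicate 1 and none in replicates 2 and 3 or in any gRc library. Snord22, a small nucleolar RNA gene, reached 114 TPM in replicate 1 from 1.94 expected counts over an effective length of 1.29 bases, so its TPM is no measure of a level. Stard3nl stood at 429, 49.1 and 14.8 TPM and, in counts, at 101, 16.3 and 11.7 CPM, so it was highest in replicate 1 on both scales. For replicate 2 the genes were Rps12l1, Srp54a, Rpl30-ps9, Mamdc4, Btf3l4, Snrpd1, Pdlim7 and Pfdn2. Pdlim7, a muscle PDZ and LIM protein gene, stood at 62.0, 421 and 394 TPM and the splicing gene Snrpd1 at 15.1, 107 and 104 TPM, so both were set apart by a low replicate 1. Srp54a had no count in replicate 1 and stood at 144 and 59.3 TPM in replicates 2 and 3. For replicate 3 they were mt-Atp6, mt-Co3, Hist1h2ap, Rnasek and the ribosomal pseudogenes Rps18-ps3, Rps25-ps1, Rpl39-ps and Rpl27-ps3. Rnasek stood at 2.51, 39.0 and 493 TPM and, in counts, at 0.846, 11.2 and 138 CPM, and in the gRc libraries at 34.6, 18.8 and 453 TPM. Pseudogenes and other near-copies can share reads with their parent genes, and their values are uncertain.

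For the 5 markers, the gRc libraries of the same number gave values side by side. Acta1 stood at 3364, 2769.96 and 6403 TPM there and Mymk at 592, 616 and 983 TPM, each highest in replicate 3 as in the vehicle libraries. Myh3 stood at 1414, 1550.1 and 846 TPM, Myog at 1289, 1502 and 912 TPM and Ckm at 682, 613 and 576 TPM. Of the collagens, Col1a1 stood at 813, 661 and 295 TPM and Col3a1 at 2295, 2156 and 934 TPM, so the high values of vehicle replicate 1 had no match in gRc replicate 1.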

How the data were processed

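Poly(A) RNA of 12 C2C12 libraries was sequenced, and the 3 vehicle libraries are described here. According to the labels and the study's methods, reads were trimmed and then mapped by the authors to GRCm38 with STAR (2.7.3a), and RSEM (1.3.3) gave the gene values. The authors' deposited expected counts are fragments assigned per gene without normalization, and the deposited TPM are those counts per effective length, scaled by RSEM to the same total in each library. The effective length was used as deposited. Whether the counting used strand is not given in the sources used here, so antisense and overlapping genes are uncertain, as are genes with near-identical copies.

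Of 48795 gene IDs, 48349 had a symbol in the reference table. CPM were computed from the expected counts, scaled to the library total. No groups were contrasted and no test was run: values are given per library or as mean ± SD (n = 3), which covers only the spread between these libraries and may be technical. Ratios of highest to lowest library were taken for genes with a mean of at least 5 TPM, and a gene at least 2-fold apart was counted. The limit of a count of 0 was 3 counts per library and covers counting error only. Medians by GC content used log2(TPM + 0.5). Gene lengths for the estimate of fragment length were those deposited. GC content, coordinates and the sequences of mitochondrial genes and their copies came from the GENCODE annotation on GRCm38, and promoter windows from RefSeq. Of the listed names, Zac1, Gm10924, Ctgf and Cyr61 matched no symbol (Ctgf and Cyr61 are Ccn2 and Ccn1).

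The genes named are the 5 markers, the 30 most abundant genes, the members of isoform families, the highest and the defining members of each list, lineage markers above 5 TPM or with no count, and the 8 genes with the widest range for each library among those at 20 TPM or more without a Gm or Rik name. Genes outside this rule were chosen after their values were seen. The members and lists were chosen with earlier results of these data known. Ratios were checked on simulated data with counting error alone and 1 length per gene in all libraries. That check does not cover differences in effective length between libraries. Analyses used Python 3.11.15, numpy 2.4.6, pandas 2.3.3 and, for figures, matplotlib 3.10.9. Scaling factors of edgeR 4.0.16 and DESeq2 1.42.0 served alternatives only. Alternatives were other thresholds, CPM, other scalings, leaving out each library or the mitochondrial genome, and, chosen after seeing the data, 1 length per gene, leaving out genes with an effective length under 50 bases, and leaving out the mitochondrial genome with its copies.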

Additional observations from a re-analysis of the deposited data

How the results depend on the processing

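Over all alternatives to the 8 summaries, 57 values stayed within the spread between libraries, or within 1.5 times for counts of genes, and 9 did not. Part of the 57 was fixed in advance. For shares and sums, leaving out a library cannot move the mean by as much as the SD. The share of Myh3 within its family does not change when genes outside the family are left out. In CPM, which is not per length, the 100 most abundant genes held 24.1% of the counts, and the summed level was 54527 CPM for sarcomere, 1006 CPM for mitosis and 53221 CPM for matrix genes. Without the mitochondrial genome and its copies the mitosis sum was 731 TPM. The count of genes at least 2-fold apart was 2876 (of 6171) with a mean of at least 20 TPM, 7254 at a threshold of 1.5-fold, and ran from 1575 to 3895 when a library was left out. The other scalings of the counts kept it within 1.5 times, at 4314 with TMM factors, 3551 with median-of-ratios factors and 3637 with 1 length per gene. The share of Myh3 in the myosin heavy chains ran from 48.1 to 55.4% when a library was left out and was 52.5% with 1 length per gene.

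The median gene stood at log2 ratios of 0.02, 0.11 and -0.14 to the mean of the libraries in TPM, so TPM values of replicate 3 sit slightly low as a whole. No paired analysis was possible because no result comes from a test between groups, and vehicle and gRc libraries of 1 number were only set side by side. With 3 libraries of unknown origin, the SD is a rough guide to the spread. The count of genes at 1 TPM was 12793 to 12958 when a library was left out, and genes with a count near 0 are limited by depth.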

Other observations

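Hox genes, which encode positional identity, were present from some clusters and not from others. Of the Hoxa cluster, 9 of 11 genes reached 1 TPM in the mean, with sums of 69.0, 90.5 and 94.2 TPM in replicates 1, 2 and 3, and of the Hoxc cluster all 9 of 9, with sums of 106, 129 and 134 TPM. Of the Hoxb cluster 0 of 10 genes reached 1 TPM, with a sum of at most 1.46 TPM, and the 9 Hoxd genes had no count in any library. These lists, and those that follow, were drawn up after the data were seen.

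Sensory receptor families were mostly without counts. Of 1330 genes with olfactory receptor names, 1294 had no count in any vehicle library, none reached 1 TPM in the mean, and all together held 1.46, 3.06 and 2.94 TPM. Of 507 vomeronasal receptor genes, 485 had no count. Of 120 cytochrome P450 genes, 84 had no count and 15 reached 1 TPM.

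Of 7 genes of insulin-like growth factor binding proteins, 6 had a mean of at least 5 TPM. Igfbp7 was the highest and the least even, at 2420, 316 and 419 TPM in replicates 1, 2 and 3, with no such height in gRc replicate 1 (654 TPM). Igfbp2 stood at 766, 396 and 205 TPM, Igfbp6 at 239.9, 290.1 and 247 TPM, and Igfbp1 had no count.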
